A study of Homo sapiens with 2 samples.

Results

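The regions described here are the dCas9-BFP-DNMT3A ChIP peaks inside protein-coding genes whose summit lay beside a long match to gRNA T2, 1 of the gRNAs designed against the *uPA* (*PLAU*) promoter. A T2 match was a site of the hg19 genome, on either strand, identical to at least the last 11 bases of T2 and followed by NGG, with these bases wholly within 70 bp of the peak summit. A peak counted as inside a gene when its summit lay in a protein-coding gene and more than 2 kb from every start of a protein-coding basic transcript. Of the 7748 peaks on chromosomes 1 to 22 and X, 751 had a T2 match, and 316 of these lay inside genes. The others were 393 T2-match peaks between genes and 42 within 2 kb of a start. The cells were HEK293T, an established human embryonic kidney line, transfected with 500 ng of a plasmid for catalytically dead Cas9 fused to blue fluorescent protein and the catalytic domain of DNMT3A together with 500 ng of *uPA* gRNA plasmids. Chromatin was recovered with an antibody against the HA tag and called against 1 input sample. With a single ChIP sample no replicate spread could be measured, no condition was compared with another, and no test was run. All 95% Wilson confidence intervals below cover counting error only, and peaks of 1 sample are not replicates.

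Cas9 first reads a short NGG motif in DNA, the PAM, and then opens the duplex from the PAM outwards, so that the gRNA bases next to the PAM, the seed, pair first. A catalytically dead Cas9 cannot cut, and it can stay bound to sites where only the seed pairs. DNMT3A is a DNA methyltransferase that adds methyl groups to cytosines, chiefly in CpG dinucleotides. Introns make up most of the length of long genes, and many hold copies of mobile elements whose sequence recurs across the genome.

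T2 and the sites at 4 of the 5 T2-match peaks inside genes with the highest fold enrichment are shown to let the shared and the free bases be seen. Each is written 5′ to 3′ on the strand that reads like T2, with the last 11 bases of T2 and the PAM in capitals (T2 itself has no PAM).
T2: gagccgggcGGGAGAGGGAG
KCNJ10, chr1:160035796-160035818, plus strand: acctgggccGGGAGAGGGAGAGG
PLEKHA6, chr1:204308626-204308648, plus strand: ttgtgtgctGGGAGAGGGAGAGG
ATG16L1, chr2:234128548-234128570, plus strand: gggaaaaagGGGAGAGGGAGGGG
NKAIN1, chr1:31668408-31668430, minus strand: aaggatctgGGGAGAGGGAGAGG
Outside the capitals these 4 sites share little with T2 or with each other. The KCNJ10 site matched 14 of the 20 bases of T2, and the other 3 matched 13 each.

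A window of 141 bp, centred on the summit, shows the surroundings of the peak of highest fold enrichment. It holds a single site in sequence whose 49-base words all occur once in the genome.
KCNJ10, chr1:160035725-160035865, plus strand: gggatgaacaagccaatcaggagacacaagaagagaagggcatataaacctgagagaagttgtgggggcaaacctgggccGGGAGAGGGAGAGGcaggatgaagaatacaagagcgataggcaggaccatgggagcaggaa

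T2-match peaks inside genes stood well above the other peaks inside genes in fold enrichment, which sets the tags of a peak against the local level expected by MACS from the input. Their median fold enrichment was 6.01 (quartiles 5.08 and 7.21, range 2.84 to 13.3), against a median of 3.69 (quartiles 3.30 and 4.21) for the 3427 peaks inside genes without a T2 match. A fold enrichment of 5 or more was reached by 240 of 316 (75.9%, 95% interval 70.9 to 80.3%), against 14.0% of all 7748 peaks and 7.21% of the peaks inside genes without a match. A MACS P at or below 1e-05 was reached by 179 of 316 (56.6%, 95% interval 51.1 to 62.0%), against 15.8% of all peaks. The numbers of tags were closer, with a median of 38 tags (range 17 to 285) beside 35 tags for peaks inside genes without a match. The FDR, estimated by MACS from a call with input and ChIP swapped, was 100% for 126 members (39.9%), against 81.7% of all peaks and 86.7% of peaks inside genes without a match, and its lowest value among members was 14.2%. Genes and the spaces between them gave much the same heights: T2-match peaks between genes had a median fold enrichment of 5.94 (quartiles 5.01 and 7.21), and those within 2 kb of a start had 6.53 (quartiles 4.81 and 8.04).

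By fold enrichment, the highest peak of the whole list was a member. It lay in the first intron of *KCNJ10*, a potassium channel of glial cells, at chr1:160035260-160036925, with 102 tags and a fold enrichment of 13.3. Its summit was 2043 bp from the nearest start, just past the 2 kb limit. The highest MACS score (-10 log10 P) of all peaks, 545.75, and the most tags, 505, were at peaks inside genes without a T2 match. Among members, the peak in the first intron of *PLEKHA6* followed, with a fold enrichment of 11.8 and 72 tags. The next peaks, in *ATG16L1*, an autophagy gene, and in intron 5 of *MEGF11*, reached 11.7 with 54 tags and 11.4 with 71 tags. *NKAIN1* and *FAM107A* each held a peak of fold enrichment 11.1, with 60 and 65 tags. The list of the 10 highest ended with *SOD2*, the mitochondrial superoxide dismutase, at 10.8, *LAX1*, an adaptor of lymphocyte signalling, at 10.5, *NUCB2* at 10.2 and *EGF*, the epidermal growth factor, at 10.1. All 10 had 1 T2 site within 70 bp of the summit, and all 10 lay in sequence whose 49-base words all occur once in the genome. Their FDR was 100% in *KCNJ10* and *PLEKHA6*, 88.9% in *SOD2*, 66.7% in *MEGF11* and 45% in *ATG16L1*. In the rest of the 10 it ran from 16.7% to 28.1%. A high FDR did not go with a weak P here: *KCNJ10* and *PLEKHA6* had the highest MACS scores of the 10, 268.48 and 199.21. They ranked 3 and 5 in the whole list by MACS P. At the lower end were *TSPAN5* with a fold enrichment of 2.84 and 35 tags, *CDC42BPA* with 3.08 and 69 tags, and *TUT7* with 3.30 and 20 tags. The peaks with most tags were not the highest in fold enrichment: the peak in *KLHL14* held 285 tags over 5119 bp at a fold enrichment of 5.11, and the peak in *MAPRE2* held 227 tags at 4.92, both named for their tags after the values were seen.

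Nearly all members were intronic. The summit lay in an intron for 288 of 316 (91.1%, 95% interval 87.5 to 93.8%), close to the 88.8% of peaks inside genes without a T2 match and to the 91.2% of all T2-match loci inside genes. No summit lay in a coding exon or a 5′ UTR, which allows a share of up to 1.20%, beside 58 of 3427 (1.69%) coding-exon summits among peaks without a match. Only 8 of the 1359 T2-match loci inside genes were in a coding exon. Summits in a 3′ UTR numbered 7. The highest of them, with a fold enrichment of 9.31 and 41 tags, lay where *CACNA1H*, a calcium channel gene, and *TPSG1* overlap. *DCX*, which codes for the neuronal microtubule protein doublecortin, had 7.40 with 78 tags, and *TCEANC* had 7.21 with 37 tags. The others were *BNC2* at 6.61, *ZNF862* and *SDK1* at 5.71 each, and *MRRF* at 4.51. A further 21 summits were within the annotated span of a gene but outside its basic protein-coding transcripts, among them those in *ATG16L1* and *NUCB2*. Of the 254 summits in an intron of the canonical transcript, 71 (27.95%, 95% interval 22.8 to 33.8%) were in the first intron, as were 25.5% of the T2-match loci in such introns. The median member was 28.03 kb from the nearest start, in an intron of 25.7 kb.

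The members fell in 315 genes of 20098. These genes were long, with a median of 158 kb against 27.3 kb for all protein-coding genes. Genes with any T2-match locus outside start regions numbered 1221 and had a median of 125 kb, and 25.8% of them held a member. Genes with 2 members numbered 11, and none had 3. Both T2-match loci of each of these 11 genes carried a summit. *SHROOM3*, which shapes epithelial cells through actin, had peaks of fold enrichment 7.25 with 60 tags and 4.71 with 104 tags. *DAB1*, an adaptor of reelin signalling in neurons, had 7.05 and 5.02, and *GMDS*, an enzyme of GDP-fucose synthesis, had 9.25 and 3.77. *ATG16L1* had 11.7 and 5.14, *NBEA* 8.65 and 6.24, and *NKAIN1* 11.1 and 4.40. *TENM2* had 8.41 and 5.93, *NAALADL2* 5.20 and 4.51, *CPQ* 6.01 and 4.47, and *FHIP1A* 7.21 and 5.41. *OPCML* ranked last of the 11 by summed tags, with 5.41 and 4.51. Within a gene the pair could thus differ by more than 2-fold, as in *GMDS*, *NKAIN1* and *ATG16L1*.

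None of the genes the study examined by name, *PLAU*, *SH2D3C*, *FAM221A*, *GAPDH* and *TGFBR3*, held a member. The site in *PLAU* that matches all 20 bases of T2 lies near the transcription start, and the nearest summit was 137 bp away, in a peak of 62 tags and a fold enrichment of 4.21. The other *uPA* gRNAs were directed at the same promoter, so this peak and its summit need not reflect T2 alone. Of the 316 members, 290 had a higher fold enrichment than this target peak. By the other measures it stood higher among them. Its 62 tags and its MACS score (-10 log10 P) of 89.57 were above the members' upper quartiles of 56.25 tags and 78.1. Among 10 genes of plasminogen activation, the system that *uPA* starts, only *LRP1* had a T2-match locus. *LRP1* is a receptor that clears protease and inhibitor complexes, and its first intron held a member of fold enrichment 8.71 and 80 tags. Among 16 DNA methylation enzymes and readers, only *DNMT3A* itself had such a locus, and its first intron held a member of fold enrichment 4.51 and 28 tags. Of 29 genes of TGF-beta signalling, 4 had a T2-match locus and 2 held a member, in *LTBP2*, of the family of latent TGF-beta binding proteins, at 6.31 and in the overlap of *TGFB3*, a ligand, with *IFT43* at 6.61. Of 25 tumour suppressor genes, 4 had T2-match loci, 6 in all, and none held a member. Over all genes with a T2-match locus outside start regions, 25.8% held a member, and 23.3% of loci inside genes had a summit. The counts of these lists are too small to be set apart from those shares.

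Families of genes, grouped by the stem of their symbols, were counted by their T2-match loci and members, beside 316 members at 1359 loci (23.3%) over all genes. Potassium channel genes (symbols starting with KCN) had 9 loci and 3 members, in *KCNJ10*, *KCNH1* (9.46) and *KCNU1* (7.41). Zinc finger genes (ZNF) had 30 loci and 4 members, with fold enrichments of 7.04 in *ZNF783*, 5.71 in *ZNF862*, 4.81 in *ZNF423* and 4.32 in *ZNF404*. Solute carrier genes (SLC) had 24 loci and 5 members, the highest in *SLC8A2* at 6.61. Guanine nucleotide exchange factor and related genes (ARHG) had 5 loci and 2 members, in *ARHGEF28* at 9.25 and *ARHGEF6* at 6.98. Calcium channel genes (CACN) had 7 loci and 2 members, the peaks in *CACNA1H* and *CACNB2* (6.91). The stem COL gave 6 loci and 3 members, in the collagen genes *COL21A1* (6.21) and *COL28A1* (6.19) and in *COLEC11* (6.91), a collectin. Cadherin genes (CDH) had 12 loci and 2 members, in *CDH23* (8.41) and *CDHR2* (4.51). Genes with the stem TMEM had 7 loci and 4 members, MYO 6 and 3, TRIM 6 and 2, ADAM 8 and 2, KIF 9 and 1, PTPR 6 and 1, and RAB 6 and 1. Protocadherin, semaphorin, ephrin receptor and F-box genes had 1, 1, 1 and 2 loci, and no member. No family was compared with the others by a test.

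The summit usually lay on or close beside the site. The centre of the 14 bases made of seed and PAM was a median of 11 bp from the summit (quartiles 5 and 19 bp), within 20 bp for 245 of 316 (77.5%) and within 35 bp for 298 (94.3%). The member just inside the limit lay 61 bp away. Summits were more often on the PAM side of the site: 193 of the 311 summits off the centre (62.1%, 95% interval 56.5 to 67.3%), with a median shift of 4 bp. Fold enrichment did not follow this distance in 1 direction, with medians of 5.83 within 10 bp (n = 146), 6.24 from 11 to 20 bp (n = 99), 6.91 from 21 to 35 bp (n = 53) and 5.56 beyond (n = 18).

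Matches beyond the required 11 bases were rare, among all T2-match loci inside genes as among members. Of the 890 loci with 1 site, 855 matched 11 bases in a row, 25 matched 12 and 10 matched 13 or more. In 310 of 316 members the match ended at the eleventh base. The other 6 matched 12 bases in a row, and none matched 13 or more, which allows a share of up to 1.20%. These 6 were *KCNJ10* (13.3), *MOB1B* (8.53), a member in the gene model ENSG00000273734 (7.21), *CREBL2* (6.91), *CAMTA1* (6.31) and *CAPRIN1* (4.39), with fold enrichments spread over much of the range. Over all 20 bases, the best site of the median member matched 13 bases (quartiles 13 and 14). At positions 1 to 9 of T2, counted from its 5′ end, between 1.90% and 47.2% of members had the base of T2. Among loci inside genes with 1 site the range was 2.02% to 37.9% with a summit (n = 248) and 4.67% to 49.4% without (n = 642).

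Sites inside genes with 17 or more matched bases are shown with and without a summit, because they are the closest matches to T2. The 3 with a summit are all the members of that kind, and the site in APBB2 was chosen after its values were seen.
CAMTA1, chr1:7711084-7711106, minus strand, 18 bases matched: gaggcggacGGGAGAGGGAGCGG
TMIGD2, chr19:4297954-4297976, minus strand, 17 bases matched: gagccagcgGGGAGAGGGAGGGG
DOCK2, chr5:169074751-169074773, minus strand, 17 bases matched: gagactggaGGGAGAGGGAGGGG
APBB2, chr4:41050667-41050689, minus strand, 18 bases matched, without a summit: gagacgggaGGGAGAGGGAGGGG
The site in intron 7 of *CAMTA1* had a summit at its centre, with a fold enrichment of 6.31 and 27 tags. *TMIGD2* had 7.51 with 28 tags, and *DOCK2*, an activator of Rac in blood cells, had 5.71 with 48 tags. At the site in *APBB2* the nearest summit was 28169 bp away. Of the words around this site 86.2% occur once in the genome, against 100% at the sites in *CAMTA1*, *TMIGD2* and *DOCK2*. Whether this difference bears on the missing summit was not tested. Single-site loci inside genes with 17 matched bases carried a summit in 2 of 12 cases, and in 2 of 11 where all words were unique.

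To see which T2 matches inside genes had a peak, sites within 70 bp of each other were merged into loci. Of 1359 loci inside genes, 316 (23.3%, 95% interval 21.1 to 25.6%) had a summit within 70 bp, and each of them had 1 member. Between genes the share was 393 of 1589 (24.7%, 95% interval 22.7 to 26.9%), and within 2 kb of a start it was 42 of 192 (21.9%, 95% interval 16.6 to 28.2%), so the intervals of the 3 kinds of place overlapped.

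Loci whose sequence recurs elsewhere had a summit less often in this list. The authors kept only uniquely mapped reads of 49 bases, so the share of 49-base words within 150 bp of a locus that occur once in the genome was computed. All words were unique at 657 loci inside genes, and 229 of these (34.9%, 95% interval 31.3 to 38.6%) had a summit. Where not all were, the share was 87 of 702 (12.4%, 95% interval 10.16 to 15.04%), and where under 50% were, it was 4 of 96 (4.17%). The share was 27.9% (95% interval 25.02 to 30.9%) for the 890 loci with 1 site, 13.02% for 2 sites, 16.03% for 3 sites and 20.6% for 4 to 6 sites. None of the 39 loci with 7 or more sites had a summit, which allows a share of up to 8.97%. Loci with several sites were rarely unique, and among fully unique loci the share was 36.1% of 612 with 1 site. It was 4 of 30 with 2 sites, 2 of 6 with 3, 2 of 7 with 4 to 6 and 0 of 2 with 7 or more. How far read mapping set these shares was not tested.

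**Figure D1:**
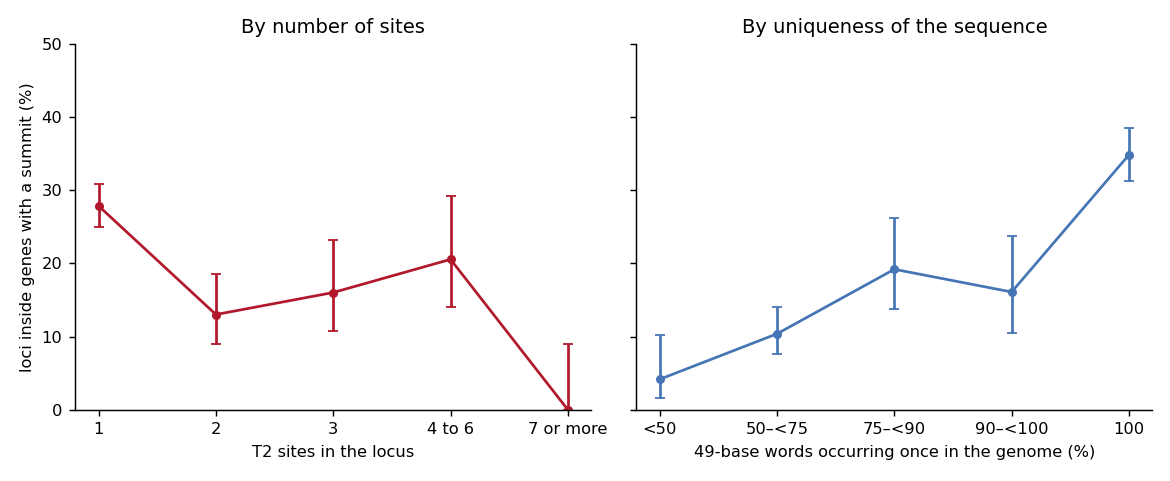
The y axis gives the percent of T2-match loci inside genes with a summit within 70 bp, by the number of T2 sites in the locus (left) and by the percent of 49-base words that occur once in the genome (right). Bars are 95% Wilson intervals, and the share runs from 4.17% where under 50% of words are unique to 34.9% where all are.

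The share with a summit differed widely with the base composition around the site. Among loci with 1 site and only unique words, those with a GC content at or under 45% within 100 bp had a summit in 87 of 145 cases (95% interval 51.9 to 67.6%). The share was 52.5% from 45 to 50% GC, 36.8% from 50 to 55%, 26.2% from 55 to 60%, and 10 of 136 (7.35%, 95% interval 4.04 to 13.01%) above 60%. The first and last of these intervals lie far apart. Inside the class at or under 45% GC the share did not fall, with 37 of 65 at or under 40% and 50 of 80 from 40 to 45%. Between genes the share fell with each step, from 77 of 140 at or under 45% GC to 9.30% above 60%. The median GC content was 47.3% for these loci with a summit and 56.2% for those without. Loci with 5 or more CpG within 100 bp had a summit in 17.1% of cases and those with none in 48.0%. Above 50% GC the share was 11 of 34 without CpG, 36 of 120 with 1 or 2, 22 of 110 with 3 or 4 and 13 of 104 with 5 or more. At or under 50% GC it did not fall with CpG number, though few loci were in the upper classes: the share was 53.9% without CpG, 54.96% with 1 or 2, 13 of 17 with 3 or 4 and 6 of 7 with 5 or more. Loci in stretches of over 75% purine on the strand of the site had a summit in 2 of 53 cases, against 41.9% of 289 loci at or under 55% purine.

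A stretch of a locus without a summit is shown beside these values. It comes from a locus of 10 T2 sites in *SSTR5*, in sequence of only unique words, and 1 of its sites, outside the stretch shown, matched 17 bases of T2.
SSTR5, chr16:1126069-1126209, minus strand: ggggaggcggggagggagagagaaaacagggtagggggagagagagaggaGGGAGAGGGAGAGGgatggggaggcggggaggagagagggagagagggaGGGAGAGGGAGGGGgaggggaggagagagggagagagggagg
The nearest summit to its best-matching site was 145709 bp away.

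Inside genes, loci with more matched bases had a summit less often, though at or under 50% GC the intervals overlapped. Over all fully unique single-site loci inside genes, the share was 51.5% (69 of 134, 95% interval 43.1 to 59.8%) with 11 or 12 of 20 bases matched, 39.9% with 13, 29.8% with 14, and 15.8% (6 of 38, 95% interval 7.44 to 30.4%) with 16 or more. At or under 50% GC it was 67.2% with 11 or 12 bases (95% interval from 54.999 to 77.4%), 63.9% with 13, 45.9% with 14 and 47.1% with 15 or more (95% interval 31.5 to 63.3%), and these intervals overlapped. Above 50% GC the same 4 classes gave 37.1% (95% interval 26.8 to 48.9%), 21.9%, 18.7% and 15.8% (95% interval 9.81 to 24.4%), and the first and last intervals did not overlap. Between genes the span was smaller, from 45.4% with 11 or 12 bases to 28.6% with 16 or more, and at or under 50% GC it was 55.6% with 11 or 12 bases and 51.7% with 15 or more. The bases of T2 beyond the seed are themselves mostly G and C, and the median GC content around these loci was 51.99% with 11 or 12 matched bases, 51.7% with 13, 51.7% with 14 and 56.7% with 16 or more. From 11 to 14 matched bases the median GC content was thus nearly level. How the 2 measures share the difference was not tested beyond these classes. Among members with 1 site, fold enrichment differed little with the number of matched bases. Its medians were 6.01 for 11 or 12 (n = 75), 6.24 for 13 (n = 71), 6.31 for 14 (n = 63) and 6.31 for 15 or more (n = 42). Where all words were unique they were 6.01, 6.265, 6.69 and 6.31.

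**Figure D2:**
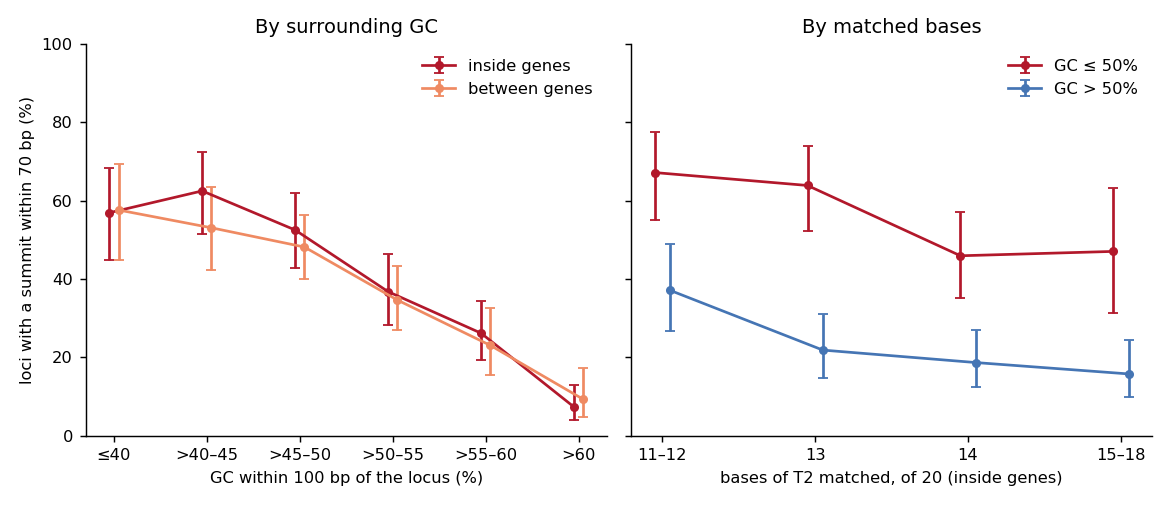
The y axis gives the percent of single-site, fully unique T2-match loci with a summit within 70 bp, with 95% Wilson intervals, by GC content within 100 bp (left, inside and between genes) and by matched bases of T2 inside genes (right, in 2 GC classes). Shares lie at or above 52.5% up to 50% GC inside genes and reach 7.35% above 60%.

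The PAM of the member's best site was AGG in 195 of 316, GGG in 70, TGG in 44 and CGG in 7. Single-site loci inside genes had a summit in 39.6% of cases with TGG (95% interval 31.0 to 48.9%), 27.8% with GGG, 7 of 25 with CGG and 25.3% with AGG (95% interval 21.8 to 29.3%). Among fully unique loci the gap was narrower and the intervals overlapped, at 42.3% for TGG (95% interval 33.3 to 51.9%) and 35.7% for AGG (95% interval 30.5 to 41.3%). Median fold enrichment was 6.01 with AGG, 6.01 with GGG, 6.26 with TGG and 6.31 with CGG.

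A sizeable minority of members looked alike beyond the T2 site. In windows of 301 bp, 78 of 316 (24.7%) aligned to another member over at least 100 bp at 80% identity or more, and 3 did so over at least 200 bp. Of these 78 members, 54 had 2 or more T2 sites within 70 bp of the summit, against 11 of the 238 others. Their median fold enrichment was 5.27 (quartiles 4.51 and 6.52), against 6.31 (quartiles 5.17 and 7.43) for the others. A subset of 43 also held the last 5 bases of gRNA T4 followed by NGG within 70 bp of the summit, and all 43 were among the 78. That is 13.6% of members (95% interval 10.3 to 17.8%), against 26 of 3427 (0.759%) peaks inside genes without a T2 match. The seeds of T1, T3 and T5 were each found at 5 or fewer members. None of the 43 had only unique words, and 32 had 2 or more T2 sites. The highest of them, in *RBM6*, had a fold enrichment of 8.41 and 35 tags. Of all T2-match loci inside genes, 449 held this T4 seed, and 48 of these (10.7%, 95% interval 8.16 to 13.9%) had a summit, against 268 of 910 (29.5%, 95% interval 26.6 to 32.5%) without it. Whether these stretches belong to a known family of repeats was not tested.

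The strand of the site differed between these alike members and the others. The T2 site read along the strand of the gene's RNA in 182 of the 312 members whose genes lie on 1 strand (58.3%, 95% interval 52.8 to 63.7%), and among members with 1 site in 134 of 249 (53.8%), beside 57.2% of 883 single-site loci inside genes. Among members alike to another it was 62 of 76, and in the subset with the T4 seed 38 of 43, whereas among the others it was 120 of 236, an even split. Fold enrichment had a median of 5.78 for sites on the RNA strand (n = 182) and 6.31 for sites on the opposite strand (n = 130).

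Over all members, 251 (79.4%) had 1 T2 site within 70 bp of the summit, 26 had 2, 19 had 3, 14 had 4 and 5 had 5. Several sites at 1 summit overlap and are not independent. More sites did not go with higher peaks: the median fold enrichment was 6.31 with 1 site (quartiles 5.11 and 7.41), 5.40 with 2, 5.13 with 3 and 5.27 with 4 to 6. Among members with only unique words it was 6.31 with 1 site (n = 224) and 5.41 with 2 or more (n = 9). The 5 members with 5 sites were *PLPPR5* with a fold enrichment of 5.28, *LRP2* and *ZSWIM5* with 4.51 each, *ZNF404* with 4.32 and *VPS13B* with 3.61. Between genes, 139 of 393 T2-match peaks (35.4%, 95% interval 30.8 to 40.2%) had 2 or more sites, against 65 of 316 members (20.6%, 95% interval 16.5 to 25.4%). The loci themselves differed in the same direction, as 57.2% of all T2-match loci between genes and 65.5% of those inside genes had 1 site.

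CpG, the substrate of DNMT3A, was present near most summits. Members had a median of 2 CpG within 100 bp of the summit (quartiles 1 and 3, highest 12 in *PDE11A*), against 1 for peaks inside genes without a T2 match. The latter also had a lower median GC content, 39.3% against 47.8%. T2-match peaks between genes likewise had a median of 2 CpG, with 16.8% at 5 or more, and those within 2 kb of a start had 3. Among all T2-match loci inside genes the median was 2 with a summit and 4 without. No CpG was present at 64 of 316 (20.3%, 95% interval 16.2 to 25.03%), against 30.3% of the peaks without a match, and 48 (15.2%) had 5 or more, against 3.06% of the peaks without a match and 5.05% of all peaks. The subset with the T4 seed carried a median of 5 CpG, and members without it 1. Fold enrichment had a median of 6.01 without CpG (n = 64), 6.31 with 1 or 2 (n = 131) and 5.71 with 3 or more.

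Members were found on every chromosome examined, from 38 on chromosome 1 to 1 on chromosome 22. As a share of the T2-match loci inside genes of each chromosome, 24 of 68 had a summit on chromosome 5 (35.3%), 23 of 72 on chromosome 12 (31.9%), 17 of 54 on chromosome 6 (31.5%), 9 of 30 on chromosome 18, 22 of 76 on chromosome 10 (28.9%) and 38 of 142 on chromosome 1 (26.8%), beside 23.3% over all chromosomes. The lowest shares were 1 of 21 on chromosome 22 (4.76%, 95% interval 0.846 to 22.7%) and 7 of 63 on chromosome 19 (11.1%, 95% interval 5.49 to 21.2%). The median member was 109 kb from the nearest other peak, and 33 members had another peak within 10 kb.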

How the data were processed

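SOAP2 alignment to hg19, equal-depth sampling of unique reads and peak calling by MACS 1.4.2 (P threshold 0.001) were done by the authors. Per the file headers, 62723055 ChIP tags and 62723050 input tags of 49 bp entered, and 44934315 and 46375481 remained after 1 tag per position was kept. The deposited tags are whole-number counts, the deposited fold enrichment is a ratio over local input background, the deposited FDR is a percent, and the deposited score rises as P falls (-10 log10 P). Input tags per peak were not given. The methods also describe keeping peaks shared by triplicates and dropping those in repeats and rDNA. The header names 1 ChIP file, and the deposited list is much longer than the filtered peak set the study describes, so it was taken as the list before these steps. Of 7757 peaks, 9 on other sequences or Y were left out.

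GRCh37 (the assembly of hg19) and GENCODE 44 mapped to it gave sites and genes. Sites, 6819 in all, were merged into 3140 loci when within 70 bp. The best site had the longest match and then lay nearest the summit. Words of 49 bases were counted exactly over both strands, and members were aligned with blastn 2.17.0. Scripts were tested on simulated data. Python 3.11.15 and scipy 1.17.1 were used.

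Named genes were the 10 highest and 3 lowest members by fold enrichment, members in exons, genes with 2 or more members, members with runs of at least 13 matched bases (there were none), members with most sites, and members in fixed lists. Members with runs of 12 bases, those with 5 sites, *OPCML*, *RBM6*, *TMIGD2*, *DOCK2* and *SSTR5* were named after their values were seen. Members and lists were chosen with earlier results of these data known. Alternatives varied the P threshold, window, match length, distance from starts and uniqueness. The values of 1 member and the sequences of some members are not reported here.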

Additional observations from a re-analysis of the deposited data

How the results depend on the processing

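With only peaks of MACS P at or below 1e-05, 179 members in 181 genes remained, with a median fold enrichment of 6.91 and 48 tags, and 13.2% of loci had a summit. With at least 12 matched bases there were 6 members in 6 genes, with a median fold enrichment of 7.06 and a share of loci of 8.82%. The share of loci with a summit was 21.04% within 35 bp, 26.6% for loci anywhere inside a peak, 16.96% for single sites, 17.7% with at least 10 bases, and 34.9% where all words were unique. Members with only unique words had a median of 42 tags, 3.86% of them had 2 or more T2 sites, and 50.9% had the site on the strand of the gene RNA. The intron share was 79.7% when the whole peak had to avoid exons, and the median CpG number was 5 within 250 bp. The uniqueness settings, and the use of any part of the site within 70 bp (319 members), were chosen after seeing the data. No paired analysis was possible because there was 1 ChIP sample and 1 input sample.

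The list gives 1 sample at a lenient threshold, and 126 members had an FDR of 100%, so single members are uncertain. The FDR did not rise steadily as P weakened: *KCNJ10* and *PLEKHA6*, both at 100%, ranked 3 and 5 in the list by MACS P. Loci without a summit may hold binding below the threshold at this depth, where the smallest member held 17 tags. Exact 49-base words do not capture the mismatches that the mapping allowed.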
